A study of Mus musculus with 2 samples.

Results

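The genes described here encode constant regions of the γδ T cell receptor (TCR): Trdc for the δ chain, and Tcrg-C1, Tcrg-C2 and Tcrg-C4 for the γ chain. They are 4 of 32285 genes in a table of UMI (unique molecular identifier) counts. They were chosen by name, with earlier results of these data known. Their levels were followed over 10007 cells of 16179 barcodes. These cells had at least 1000 genes, at most 5% mitochondrial UMIs, and one of the hashtag rows 11 to 18 with at least 80% of at least 10 hashtag UMIs.

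The cells came from mouse thymus on a C57BL/6 background and were sorted as invariant natural killer T (iNKT) cells, which carry an αβ TCR with an invariant α chain. The mice were Ctrl or T-KO. T-KO mice lack the scaffold protein Kidins220 in T cells, through floxed Kidins220 alleles and a Cre driven by the proximal Lck promoter, which the study describes as barely active in γδ T cells. Thymi were pooled, 4 for each genotype, and each pool was sorted for stage 0 (TCRβ+ CD1d tetramer+ CD24+ NK1.1-) and stage 3 (TCRβ+ CD1d tetramer+ NK1.1+ CD24- CD44+), all in duplicate. The 8 populations were marked by hashtag antibodies and sequenced as 1 droplet library read from the 5′ end. The study gives an age range for its mice as a whole, not for those of this sort. It names poor tetramer staining in this sort as a possible reason for CD4+ CD8+ and CD4- CD8- thymocytes among the cells. The study removed these thymocytes, and B cells and myeloid cells, from its analysis. They were kept here.

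The labels number the hashtags from 1 to 8, whereas the hashtag UMIs lie on rows 11 to 18 of the table, with 1352182 to 7856856 UMIs on each. Nothing in the sources pairs these rows with stage or genotype, so no row was assigned to either. No Ctrl and T-KO cells were compared and no groups were tested against each other. The odd rows (11, 13, 15, 17) held 4249 cells and the even rows (12, 14, 16, 18) held 5758. Median depth was 6500 to 8068 UMIs per cell in the odd rows and 3258 to 3804 in the even rows. Klrb1c, which encodes NK1.1, stood at 4.78 to 6.57 CPM (UMIs of a gene per 1000000 gene UMIs of the group) in the odd rows and at 328 to 444 in the even rows. Trav11, the variable segment of the invariant α chain, stood at 0.205 to 1.14 CPM and at 39.5 to 56.5 CPM in the same order. Of the other sort markers, Cd24a stood at 313 to 365 CPM in the odd rows and at 23.3 to 34.2 in the even rows. Cd44 stood at 40.7 to 90.4 CPM in the odd rows and at 143 to 163 in the even rows. All intervals given are 95% intervals, exact Poisson for CPM and exact binomial (Clopper-Pearson) for shares of cells or UMIs, and they cover counting error only.

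In mice the γ and δ genes rearrange in early double negative (DN) thymocytes, before or together with the β genes. Trdc lies inside the TCRα locus, so a join of an α variable to an α joining segment deletes it from that chromosome. The γ locus is arranged differently: it holds several cassettes, each with its own joining segment and constant gene, and they stay in the genome of αβ T cells. Constant genes can also be transcribed from unrearranged DNA, which gives transcripts without a variable segment.

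In the GRCm38 annotation Trdc lies at chr14:54142851-54148868 on the plus strand with 4 exons, and Trac, the α constant gene, starts 71652 bases beyond its end. The γ genes lie on chromosome 13. Tcrg-C1 spans chr13:19214103-19217024 on the plus strand with 3 exons. Tcrg-C2 spans chr13:19304649-19307551 on the minus strand with 3 exons, and Tcrg-C4 spans chr13:19344558-19352756 on the plus strand with 4 exons. The first 120 bases of exon 1 are shown because they decide how well reads of the γ genes can be told apart. In Tcrg-C1, capitals mark bases at which either of the other γ genes differs, and in Tcrg-C2 and Tcrg-C4 they mark bases that differ from Tcrg-C1. Trdc, which was not aligned with them, is in lower case throughout. The sequences were read from the RefSeq GRCm38.p6 genome at the exon coordinates of GENCODE M21.

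Tcrg-C1: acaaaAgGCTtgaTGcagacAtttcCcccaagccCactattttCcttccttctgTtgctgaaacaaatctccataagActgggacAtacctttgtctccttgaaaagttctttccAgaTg
Tcrg-C2: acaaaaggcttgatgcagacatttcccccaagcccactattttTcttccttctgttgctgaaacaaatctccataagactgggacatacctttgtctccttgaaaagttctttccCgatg
Tcrg-C4: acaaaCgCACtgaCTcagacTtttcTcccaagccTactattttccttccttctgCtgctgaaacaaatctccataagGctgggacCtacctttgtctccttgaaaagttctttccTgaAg
Trdc: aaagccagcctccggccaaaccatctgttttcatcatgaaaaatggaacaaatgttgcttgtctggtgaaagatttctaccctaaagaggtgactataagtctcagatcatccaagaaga

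Over the 330 bases of exon 1, Tcrg-C1 and Tcrg-C2 differ at 9 bases and are 97.3% identical, while Tcrg-C4 differs from Tcrg-C1 at 59 bases. Of all 90-base windows along the transcript of Tcrg-C1, 11.1% also occur in another γ constant gene, mostly in Tcrg-C3 (9.34%), a further γ constant gene that is not among the 4. For Tcrg-C2 this share is 2.55%, and for Tcrg-C4 no window is shared. Tcrg-C1 and Tcrg-C2 had few windows in common, 1.80% of those of Tcrg-C1 and 1.82% of those of Tcrg-C2. Their values are uncertain to the extent that short reads could be placed on either. A UMI with reads in a variable and a constant segment is counted for 1 gene at most, so constant gene counts can understate joined transcripts. Trdc overlaps the δ variable gene Trdv5 on the opposite strand by 207 bases.

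Trdc was the member that separated the rows most. It stood at 58.0, 103, 109.9 and 129.6 CPM in rows 11, 13, 15 and 17. In rows 12, 14, 16 and 18 it stood at 9.91, 10.5, 9.64 and 11.8 CPM. The lowest odd row was thus above the highest even row, and the even rows lay within each other's counting intervals. Pooled, the odd rows were 9.21-fold above the even rows (8.03 to 10.6), and 5.98-fold with at most 4000 genes per cell.

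Tcrg-C1 showed a smaller step, with 64.6, 119, 76.7 and 68.7 CPM in rows 11, 13, 15 and 17. Its even rows 12, 14, 16 and 18 held 32.5, 38.0, 65.3 and 46.0 CPM. Row 16 was above row 11, so the odd and even values overlapped. Tcrg-C2 stood at 50.1, 73.8, 77.8 and 65.4 CPM in the odd rows, in the same order. Its even rows were close together at 29.1, 33.5, 34.2 and 31.8 CPM and did not reach the odd rows. The pooled odd rows were 2.14-fold above the even rows for Tcrg-C1 (1.99 to 2.32) and 2.12-fold for Tcrg-C2 (1.94 to 2.31). Without the cells that held UMIs of both Kit and Il2ra, which mark early thymocytes, these were 1.31 and 1.44.

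Tcrg-C4 went the other way when the rows were pooled, at 0.727 of the even-row level in the odd rows (0.663 to 0.797). It stood at 17.3, 29.4, 32.3 and 40.4 CPM in rows 11, 13, 15 and 17. The even rows 12, 14, 16 and 18 held 32.2, 34.9, 55.2 and 47.4 CPM. These values overlapped, with row 17 above rows 12 and 14. Trac, for comparison, stood at 34.0 to 64.3 CPM in the odd rows and 184 to 214 in the even rows, with no overlap.

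**Figure D1:**
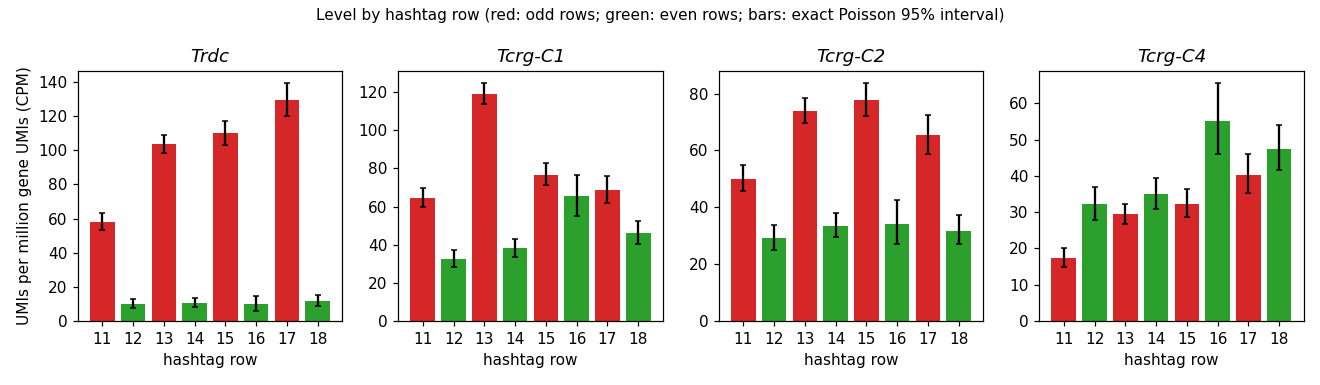
CPM of each constant gene (vertical axis, UMIs per 1000000 gene UMIs) in each of the 8 hashtag rows (horizontal axis), with odd rows in red, even rows in green and exact Poisson 95% intervals as error bars. Trdc lies between 9.64 and 11.8 CPM in the even rows and between 58.0 and 129.6 in the odd rows, whereas the Tcrg-C4 values of odd and even rows overlap.

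The odd rows held several kinds of cells, and were split by the first match of at least 2 Cd79a, 5 Cst3, 1 Rag1 or 2 Ikzf2 UMIs. The Cd79a class had 810 cells and all 5 of the listed B cell markers at 20 CPM or more. The Cst3 class had 972 cells and all 6 myeloid markers at this level, among them H2-Aa, a class II major histocompatibility chain, at 7494 CPM. In the Rag1 class (418 cells) 6 of the 7 markers of CD4+ CD8+ double positive (DP) thymocytes reached 20 CPM, and Cd4 was at 18.99 CPM. The Ikzf2 class (1106 cells) had all 5 markers of post-selection thymocytes that express Helios, the product of Ikzf2. The remaining 943 cells had 4 of the 5 DN markers and 5 of the 7 DP markers at 20 CPM or more. The marker list of each class set by a gene holds that gene, so its place in the count followed from the rule. Rag1, one of the DP markers, was absent from the remaining cells by the same rule. All 6 iNKT markers reached 20 CPM in the even rows, which were kept whole.

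Trdc was highest in the thymocyte classes and low in the even rows. Its CPM in rows 11, 13, 15 and 17 was 186, 156, 173 and 156 in the Rag1 class. In the Ikzf2 class it was 108, 90.5, 144 and 104, and in the remaining cells 146, 240.4, 163 and 266. The Rag1 class was above the Ikzf2 class in 4 of 4 rows, and the remaining cells were above the Ikzf2 class in 4 of 4. Between the Rag1 class and the remaining cells neither was higher throughout, with 2 rows each way.

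Pooled over rows, Trdc ran from the remaining cells (205.9 CPM, 195 to 217) through the Rag1 class (165, 155 to 176) and the Ikzf2 class (108, 102 to 116) to the Cst3 class (34.8, 31.4 to 38.4). The Cd79a class (11.5, 9.06 to 14.5) and the even rows (10.5, 9.18 to 12.04) ended the order, with overlapping intervals when all cells were kept. The value of the Cd79a class rested on few cells, since 3 of its 810 cells held 55.4% of its Trdc UMIs. The Ikzf2 class was 10.3-fold above the even rows (8.87 to 11.99), and 6.50-fold with at most 4000 genes per cell. Trac, which needs α joining for a full transcript, had another order, with 199 CPM in the even rows, 114 in the Ikzf2 class, 53.5 in the remaining cells, 19.5 in the Rag1 class, 13.3 in the Cst3 class and 8.57 in the Cd79a class.

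Tcrg-C1 had another order. In the remaining cells it reached 177, 329, 169 and 167 CPM in rows 11, 13, 15 and 17. The Ikzf2 class varied widely, with 192, 136, 93.6 and 27.8 CPM in these rows. The Rag1 class was low and even, at 35.3, 33.7, 37.8 and 28.4 CPM, below the remaining cells in 4 of 4 rows and below the Ikzf2 class in 3. The even rows were at 41.3 CPM pooled (38.6 to 44.2), next to the Rag1 class at 34.2 (29.5 to 39.4), and their intervals overlapped.

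For Tcrg-C2 the remaining cells stood at 134, 178, 139.9 and 101 CPM in rows 11, 13, 15 and 17. The Ikzf2 class stood at 138, 97.5, 117 and 55.6 CPM, above the Rag1 class at 33.8, 39.5, 59.8 and 51.2 CPM in 4 of 4 rows. The pooled even rows were lower still, at 31.9 CPM. Between the Ikzf2 class and the even rows the pooled difference was 3.12-fold (2.81 to 3.46), against 2.70-fold for Tcrg-C1 (2.46 to 2.96). Without the cells that held both Kit and Il2ra UMIs they were 1.90-fold and 1.49-fold.

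Tcrg-C4 was close to the even-row level (39.3 CPM) in the Ikzf2 class (45.1) and below it in the Rag1 class (27.8, 23.6 to 32.5). It stood at 48.4, 69.8, 45.8 and 55.1 CPM in the remaining cells of rows 11, 13, 15 and 17. In the Ikzf2 class the same rows held 34.8, 34.9, 64.3 and 50.5 CPM, and in the Rag1 class 24.6, 23.3, 26.0 and 41.7. The Ikzf2 class was 1.15-fold above the even rows (1.01 to 1.30). That small difference did not keep its direction: it was 0.862 without the cells that held both Kit and Il2ra UMIs and 0.995 without row 15.

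**Figure D2:**
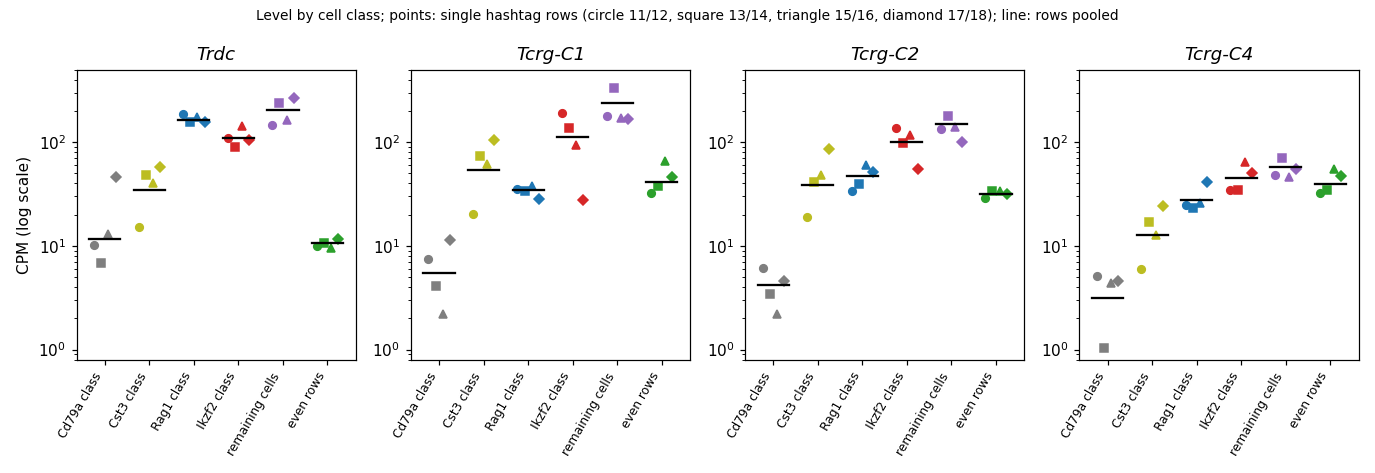
CPM on a log scale (vertical axis) of each constant gene in the 5 classes of the odd rows and in the even rows (horizontal axis), with 1 point per hashtag row and a line at the level of the pooled rows. Trdc falls to 10.5 CPM in the even rows, next to the pooled 11.5 of the Cd79a class, while Tcrg-C4 stays at 39.3 CPM there.

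The Cd79a class, with its B cell markers, was used as the background of these T cell genes. It was not free of other T cell RNA, whose source was not tested. In this class Trbc2, a β constant gene, was found in 27.0% to 37.9% of cells by row, and Cd3e in 17.1% to 27.6%. There, the share of cells with a UMI was 3.46% for Trdc (2.31 to 4.96), 2.35% for Tcrg-C1 and Tcrg-C2 and 1.85% for Tcrg-C4, at a median depth of 6002.5 UMIs. In the even rows Trdc was found in 3.28% of cells (2.84 to 3.78) at a median depth of 3400.5 UMIs, so these shares of Trdc are not at equal depth. Tcrg-C1, Tcrg-C2 and Tcrg-C4 were found in 10.6%, 9.34% and 10.8% of even-row cells, above the background of each although their cells were shallower.

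For Trdc the comparison with the Cd79a class turned on a few cells. With all cells, Trdc stood at 10.2, 6.87, 13.1 and 46.0 CPM in the Cd79a class of rows 11, 13, 15 and 17, around the values of the even rows. Without the 1 cell richest in Trdc in each row, an alternative added after the values were seen, it stood at 5.15, 5.20, 1.12 and 2.37 CPM. The even rows 12, 14, 16 and 18 then held 9.59, 9.59, 7.90 and 10.7 CPM, each above every row of the Cd79a class. That rule took 1 cell from 58 to 380 per row in the Cd79a class and from 577 to 2162 in the even rows. The trim was thus heavier in the Cd79a class, so this order does not show which group is higher.

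Of 5758 even-row cells, 4 had 3 or more Trdc UMIs, a limit chosen after the values were seen. One in row 16 had 4 Trdc UMIs, 10 of the δ variable gene Trdv4, no Klrb1c and 1 Trac UMI. One in row 18 had 5 Trdc UMIs with 16 of Trdv2-2, 1 of Klrb1c and 1 of Zbtb16. The other cells, in rows 14 and 18, had 7 and 5 Trdc UMIs and no δ variable UMI among those listed.

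In the odd rows Trdc was found in 51.9% of Rag1-class cells (47.0 to 56.8), 33.9% of the remaining cells and 22.2% of the Ikzf2 class. The Rag1 class was also the deepest, with a median of 13561.5 UMIs per cell, against 5517.5 in the Ikzf2 class and 4159 in the remaining cells. Row 11 stood apart in the Rag1 class, with a median of 3684.5 UMIs against 14409 to 15274 in the other rows, and without it the share at full depth was 57.2%. Thinned to 1000 UMIs per cell, the expected shares for Trdc were 11.5%, 10.3% and 5.72% in the same order, 1.06% in the even rows and 0.745% in the Cd79a class. At equal depth the Rag1 class and the remaining cells thus came close to each other. For Tcrg-C1 the thinned shares were 2.87% in the Rag1 class and 8.37% in the remaining cells. They were 4.52% in the Ikzf2 class and 3.66% in the even rows. The Rag1 class, above the even rows at full depth (23.4% against 10.6%), was thus no longer above them. In 1 draw the shares were 2.39% (1.15 to 4.36) and 3.68% (3.21 to 4.20), with overlapping intervals. Tcrg-C4 followed the same pattern, with 2.90% in the Rag1 class against 3.60% in the even rows after thinning. In the same draw these were 1.44% (0.529 to 3.10) and 3.82% (3.34 to 4.35), without overlap. The thinned Tcrg-C2 shares were 4.34% in the Rag1 class, 8.36% in the remaining cells, 5.23% in the Ikzf2 class and 3.00% in the even rows.

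**Figure D3:**
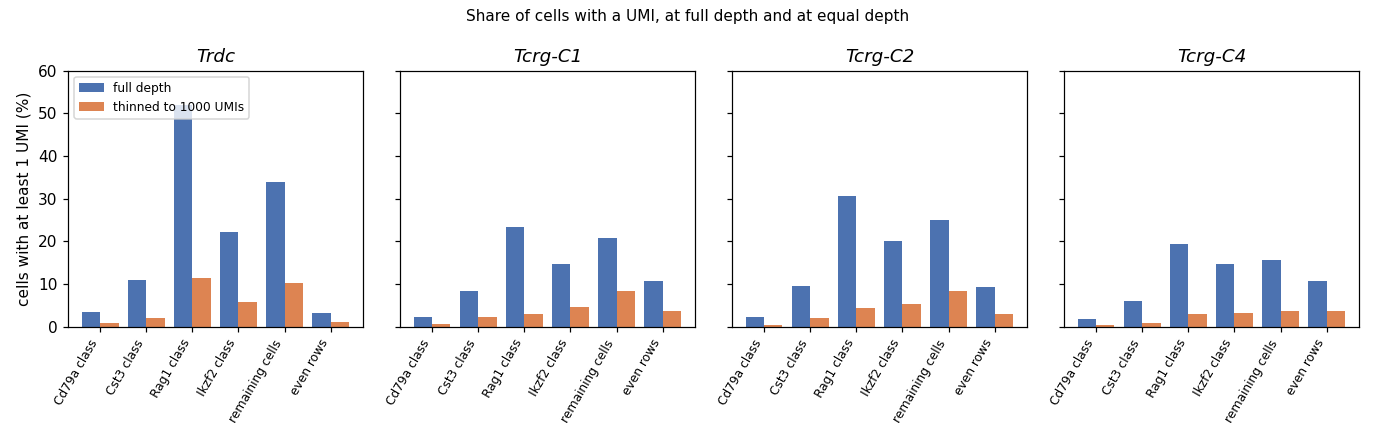
Percentage of cells with at least 1 UMI of each constant gene (vertical axis) by class (horizontal axis), at full depth in blue and at 1000 UMIs for every cell in orange. The 51.9% of Rag1-class cells with Trdc becomes 11.5% at equal depth, next to 10.3% in the remaining cells.

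The UMIs of a gene were unevenly spread over cells. Cells with 10 or more UMIs held 74.7% of the Tcrg-C1 UMIs of the remaining cells (48 of 943 cells) and 68.9% of those of the Ikzf2 class (31 of 1106). For Trdc such cells held 42.1% in the remaining cells, 40.0% in the Ikzf2 class and 36.3% in the Rag1 class. In the even rows 2 of 5758 cells had 10 or more Tcrg-C1 UMIs, and no cell had as many of Trdc, Tcrg-C2 or Tcrg-C4. For Tcrg-C2 they held 52.3% in the Ikzf2 class and 45.3% in the remaining cells, but none in the Rag1 class. For Tcrg-C4 they held 9.82% in the Ikzf2 class and 14.75% in the remaining cells, so its level there rested mostly on cells with fewer UMIs.

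Kit, the receptor for stem cell factor, and Il2ra, the CD25 chain, mark DN thymocytes, and cells with a UMI of both were set apart after the values had been seen. They numbered 189 of 4249 odd-row cells (4.45%) with 6.50% of the gene UMIs, but held 42.9% of the Tcrg-C1, 36.5% of the Tcrg-C2, 25.2% of the Tcrg-C4 and 9.36% of the Trdc UMIs of these rows. Of the 99 odd-row cells with 10 or more Tcrg-C1 UMIs, 54 were among them. In rows 11, 13, 15 and 17 Tcrg-C1 stood at 375, 778, 485 and 579.8 CPM in these cells. All 4 values were above the highest level of any class, which was 329 CPM. Tcrg-C2 stood at 280.5, 421, 345 and 519 CPM in the same rows, while Trdc, at 162, 143, 98.4 and 155 CPM, stayed within the range of the other thymocyte classes.

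Of the DN markers that the rule did not use, 2 of 3 were higher in these cells. Notch1 stood at 172 CPM against 64.0 in the other odd-row cells, Hes1, a Notch target, at 40.7 against 5.06, but Ptcra, the pre-TCR α chain, stood at 13.2 against 38.7. Dntt, which adds bases at joins, was at 563 CPM against 330, Rag1 at 4.00 against 31.1 and Trac at 9.20 against 45.4. These cells were found in the remaining cells (73), the Ikzf2 class (58) and the Cst3 class (51), and only 3 of 5758 even-row cells met the same rule. Their median depth was 12708 UMIs, against 6832.5 in the other odd-row cells, and the part of depth in the selection was not tested, since deeper cells pass such a rule more often.

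Taking these cells out lowered the γ genes and left Trdc near its level. In the Ikzf2 class Tcrg-C1 went from 111 to 61.4 CPM, Tcrg-C2 from 99.3 to 60.7, Tcrg-C4 from 45.1 to 33.8 and Trdc from 108 to 103. In the remaining cells Tcrg-C1 went from 236 to 165 CPM and Trdc from 205.9 to 208.5. The row values of Tcrg-C1 in the Ikzf2 class became 100.4, 76.6, 56.6 and 13.7 CPM in rows 11, 13, 15 and 17, so row 17 stayed lowest. Il2ra itself varied over these rows in the whole Ikzf2 class between 17.03 and 155 CPM.

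The Cst3 class is a mixture in this respect. Its 51 Kit and Il2ra cells had Tcrg-C1 at 388 CPM and H2-Aa at 1740.1, while its other 921 cells had Tcrg-C1 at 26.2 and H2-Aa at 7969 CPM. With a limit of 10 in place of 5 Cst3 UMIs (and stricter limits for the other class genes), Trdc in this class went from 34.8 to 5.46 CPM and Tcrg-C1 from 53.8 to 12.4. For the Cd79a class, the limits used elsewhere gave 11.5 CPM of Trdc and 5.46 of Tcrg-C1 (3.80 to 7.59). The values of the Cst3 class under stricter limits are not on equal terms with these, so they do not rank the classes.

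**Figure D4:**
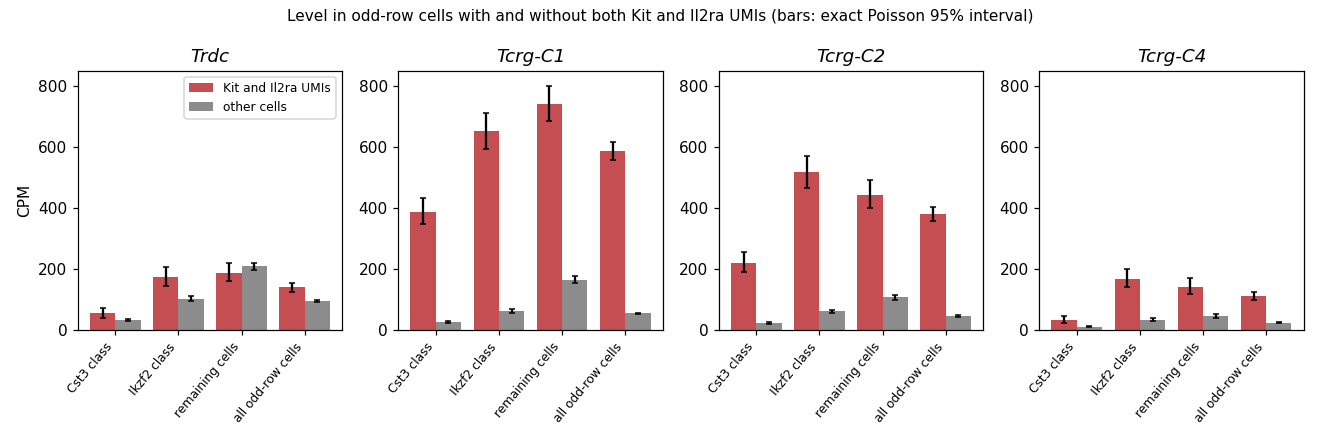
CPM (vertical axis) of each constant gene in odd-row cells with UMIs of both Kit and Il2ra (red) and in the other cells (grey), for 3 classes and for all odd-row cells (horizontal axis), with exact Poisson 95% intervals. Tcrg-C1 is at 586 against 54.1 CPM over all odd-row cells and Tcrg-C2 at 379.5 against 45.9, whereas Trdc is at 139.8 against 94.1.

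Within the Rag1 class, Cd8b1, a chain of the CD8 coreceptor that appears as cells become DP, separated Trdc from the γ genes. Trdc stood at 177 CPM in the 322 cells with a Cd8b1 UMI (165 to 189) and at 106 in the 96 without (86.1 to 129.6). Tcrg-C1 took the opposite direction, at 25.7 CPM with Cd8b1 (21.3 to 30.8) and 77.8 without (61.0 to 97.8). Tcrg-C2 was at 40.5 and 83.2 CPM, and Tcrg-C4 at 20.99 and 62.4. Only 2 rows had enough cells without Cd8b1 for values by row. Trdc stood there at 110.5 and 126.8 CPM, against 160 to 235 in the 4 rows with Cd8b1. Tcrg-C1 stood at 69.2 and 97.9 CPM, against 19.9 to 32.4, and Tcrg-C2 and Tcrg-C4 did not overlap either. The cells with Cd8b1 were the deeper ones, with a median of 15479 against 5545.5 UMIs.

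In the Ikzf2 class the cells with at least 2 UMIs of the proliferation genes Mki67 and Top2a (376 cells) had the highest Trdc, at 158 CPM. It was at 42.8 CPM in noncycling cells with Tnfrsf9, the costimulatory receptor 4-1BB (224 cells), at 29.0 in those with Cd7 (68 cells) and at 43.8 in the others (438 cells). Over rows 11, 13, 15 and 17 the cycling cells ranged from 130.3 to 209 CPM for Trdc and the Tnfrsf9 cells from 38.1 to 51.6, without overlap. Tcrg-C1 was lowest in the Tnfrsf9 cells, at 9.42 CPM (3.68 to 12.1 over rows), against 124 in cycling cells and 164 in the others. Among the remaining cells, split the same way after the values were seen, Trdc was at 248.5 CPM in cycling cells and 100.3 in the rest. Over rows these ranged from 192.6 to 296.5 and from 52.0 to 198.6 CPM, which overlap. Cycling cells were the deeper ones there, with row medians of 12032.5 to 13749 against 2607 to 3206 UMIs.

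The even rows were split by the genes Ccl5 and Izumo1r, and the pooled levels of Trdc were then alike. It stood at 10.4 CPM in 1526 cells with at least 2 UMIs of the chemokine Ccl5, at 10.6 in 1444 further cells with Izumo1r, which encodes folate receptor 4, and at 10.6 in the other 2788. Tcrg-C1 stood at 39.8, 40.2 and 43.0 CPM in these groups, and Tcrg-C4 at 40.3, 35.9 and 40.8. Tcrg-C2 was at 35.6 CPM in the Ccl5 cells (31.0 to 40.7), 26.6 in the Izumo1r cells (22.4 to 31.3) and 32.7 in the others (29.3 to 36.5). Single rows varied more. Trdc in the Ccl5 cells ranged from 0 UMIs in row 16, which allows up to 6.85 CPM, to 20.4 CPM in row 18 (12.9 to 30.6), and Tcrg-C1 in the others from 31.7 to 80.9 CPM.

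Variable genes were counted beside the constant genes, since a joined transcript holds both. In the Kit and Il2ra cells only 4.06% of the γ variable and constant UMIs were variable (114 of 2808, 3.36 to 4.86), in rows 11, 13, 15 and 17 0.205%, 3.51%, 9.85% and 2.85%. The share was 63.8% in the Rag1 class (61.5 to 66.1) and 61.1% in the even rows (59.8 to 62.3), with 61.4% to 68.2% over the rows of the Rag1 class and 50.8% to 64.5% over the even rows. The Ikzf2 class was between, at 40.4% (38.8 to 42.0), and ranged from 23.3% in row 11 to 57.9% in row 17. The remaining cells were at 25.7% (24.3 to 27.0). Every Ikzf2-class value by row was thus above every value of the Kit and Il2ra cells. Only segments in the list of 7 γ variable genes were counted.

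For δ, variable genes made up 5.15% of variable and Trdc UMIs in the Kit and Il2ra cells (19 of 369, 3.13 to 7.92). Row 15 carried this value, with 16 of the 19 variable UMIs and a share of 23.2%, against 0%, 0.685% and 4.17% in rows 11, 13 and 17. The shares were 26.8% in the Rag1 class, 21.4% in the remaining cells and 48.0% in the Ikzf2 class (45.7 to 50.4). In the Ikzf2 class this share lay between 41.0% and 52.8% over the rows. The even rows gave 44.6%, but from 174 variable and 216 Trdc UMIs in all, of which 26 variable UMIs came from the pair of cells named above.

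**Figure D5:**
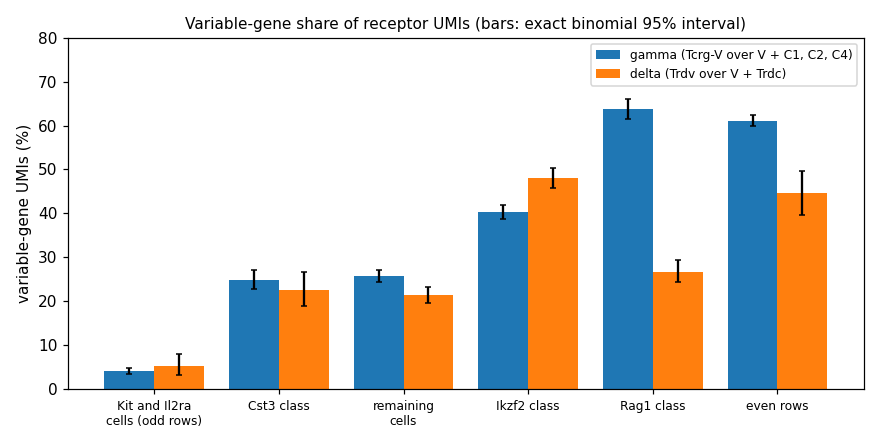
Percentage of variable-gene UMIs (vertical axis) among the variable and constant UMIs of the γ genes (blue) and of the δ genes (orange) in 6 groups of cells (horizontal axis), with exact binomial 95% intervals. The γ share is 4.06% in the Kit and Il2ra cells and 63.8% in the Rag1 class.

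By gene, Trgv2, the segment also called Tcrg-V2, had the highest CPM among γ variable genes in the Rag1 class (139 CPM), the Ikzf2 class (113), the remaining cells (112) and the even rows (119.9). Tcrg-V4 followed at 38.7, 29.9, 24.5 and 36.3 CPM in the same order. These levels are not scaled for length, so they serve only for comparing groups. Tcrg-V5, Tcrg-V6 and Tcrg-V7, the first 2 of which belong to fetal waves of γδ T cells, stayed at 3.01 CPM or below in every group. Of the 6 δ variable genes, Trdv1 (49.3 CPM) and Trdv2-2 (36.3) passed 20 CPM in the Ikzf2 class, Trdv2-2 did so in the Rag1 class (46.8) and the remaining cells (30.1), and none did in the even rows, where the highest was Trdv2-2 at 4.39 CPM.

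Detection in single cells followed the cassettes in part. In the even rows a Tcrg-C2 UMI was found in 23.6% of the 1382 cells with a Trgv2 UMI (21.4 to 25.9) and in 4.84% of cells without (4.23 to 5.52), a ratio of 4.87. Both genes lie on the minus strand in the same cassette. For Tcrg-C4 and Tcrg-C1 the ratio to Trgv2 was 3.23 and 2.16. Tcrg-V4, which lies in the Tcrg-C1 cassette, gave its highest ratio with Tcrg-C1, 2.51 (23.0% against 9.17%), and 1.94 and 1.82 with Tcrg-C2 and Tcrg-C4. Tcrg-V1, next to Tcrg-C4, gave 2.04 with Tcrg-C4, 1.92 with Tcrg-C2 and 1.78 with Tcrg-C1, on 213 cells and with overlapping intervals. None of these variable genes moved with Trdc, with ratios of 0.961 to 1.04. Cells with a Trgv2 UMI had a median of 3534.5 UMIs and those without 3349, so depth differed little.

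The γ constant genes were also found together in even-row cells. Tcrg-C4 was found in 26.6% of cells with Tcrg-C2 and in 9.14% of those without, and Tcrg-C2 in 17.4% of cells with Tcrg-C1 against 8.39%. For Trdc no tie was detectable beyond the interval, with Tcrg-C1 in 12.7% of the 189 cells with Trdc (8.31 to 18.3) and 10.5% of the others. In the remaining cells Trdc and Tcrg-C1 did go together, at 45.3% of cells with Trdc against 8.35% without. Depth moved with this, at a median of 12417.5 against 2946 UMIs. In 1 draw of 1000 UMIs per cell the shares were 20.2% (12.8 to 29.5) and 6.99%, and their ratio went from 5.43 to 2.89.

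Cells with a Trac UMI had fewer γ transcripts among the remaining cells: Tcrg-C1 was found in 8.99% of 267 such cells (5.84 to 13.1) and in 25.6% of cells without Trac (22.3 to 29.1). The cells with Trac were the shallower ones, with medians of 3488 and 4881.5 UMIs. In the Ikzf2 class cells with Trac were deeper (6294 against 4762) and still had Tcrg-C1 less often, in 9.26% (6.93 to 12.1) against 19.8% (16.6 to 23.2). Trdc there was in 17.8% of cells with Trac (14.6 to 21.3) and 26.3% of those without (22.8 to 30.1). In the Rag1 class Trac made no visible difference to Trdc (50.6% and 52.2%), and in the even rows Tcrg-C1 was found in 11.5% of cells with Trac and 9.77% of those without.

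Of 12 genes of the γδ T cell programme, 1 to 4 reached 20 CPM in a group. These are levels over whole groups, so they do not show whether a few cells carry the programme. Sox13, a transcription factor of γδ T cells, ranged from 1.22 CPM in the even rows to 14.97 in the remaining cells. Il23r, a receptor of IL-17 producing γδ T cells, did not exceed 1.16 CPM, and the scavenger receptor gene Cd163l1 did not exceed 5.61. Numbers of these genes at 20 CPM or more were 1 in the Rag1 class (Id3), 2 in the Ikzf2 class (Id3 and Rgs1), 2 in the remaining cells (Id3 and Rgs1) and 4 in the even rows (Id3, Rgs1, Zbtb16 and Maf), all genes that other thymocytes or iNKT cells express too. The Cd79a class had 4 (Rgs1, Ccr6, Blk and Id3), and the Cst3 class 2 (Rgs1 and Id3). CD3 genes, whose products carry either receptor to the surface, were all at 20 CPM or more outside the Cd79a class, with Cd3e at 676 CPM in the Rag1 class, 847 in the Ikzf2 class and 1348 in the even rows.

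Among 9125 genes with at least 20 CPM in at least 1 of 24 points (the classes of each odd row and the whole even rows), the 5 whose pattern was most like each member were listed by Pearson's r of log2(CPM + 10). All points come from 1 library and differ in depth and cell cycle, so r is a description. Trdc was most like Cbx1, a heterochromatin protein (r = 0.978), Smo, the Hedgehog signal transducer (0.976), Smarcc1, a chromatin remodelling subunit (0.970), Tipin, which acts at replication forks (0.970), and Shmt1, a one-carbon enzyme (0.969). Smo stood at 85.3 CPM in the Rag1 class, 69.2 in the remaining cells, 47.9 in the Ikzf2 class and 3.81 in the even rows. Tcrg-C1 was most like Tcrg-C2 (0.942), with which it shares 1.80% of its 90-base windows. Next came Dnmt3b, a DNA methyltransferase (0.901), Dpf2 (0.896), Il2ra (0.887) and Tuba4a (0.871). After Tcrg-C1, Tcrg-C2 was most like Dipk1b (0.933), Atxn7l3b (0.923), Frat2 (0.917) and Dnmt3b (0.913).

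Tcrg-C4 was most like Trat1, an adaptor bound to the TCR (0.932), and Drosha, the microRNA processing enzyme (0.926). Gata3, a T lineage transcription factor (0.918), Cd247, the CD3ζ chain (0.914), and Ubald1 (0.910) followed. Trat1 stood at 69.3 CPM in the Rag1 class, 94.0 in the Ikzf2 class and 65.0 in the even rows, so it did not fall away in the even rows as Smo did. With Trac, r was -0.00491 for Trdc, 0.444 for Tcrg-C1, 0.433 for Tcrg-C2 and 0.735 for Tcrg-C4. Between members, r was lowest for Trdc with Tcrg-C4 (0.541).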

How the data were processed

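The deposited values are raw counts: UMIs per gene or hashtag and barcode, made by the authors in Cell Ranger 6.0.0 on the prebuilt mm10 mouse reference (no source used here names the release). The submitters' processing notes also name Seurat, and no Seurat output was used here. The assigned cells held 59024792 of 85673127 gene UMIs, at least 1297 per cell. No per-sample column of another series was found, and the 20 hashtag rows stayed out of library sizes.

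CPM was computed from UMIs summed over the cells of a group, so deep cells weigh more. Values by row need at least 20 cells. Cells of 1 library are not replicates, and no label pairs the hashtag rows with populations, so no groups were tested against each other. Dixon's test served only to flag single rows. Doublets between populations fall to the hashtag rule, and no doublet caller was run, but a limit of 4000 genes per cell was one alternative. The genes named are the 4 members, those of the fixed lists (15 lists, with 20 CPM as the limit for a count), the genes that define a class or split, and for each member the 5 genes of most similar pattern. One gene of the γδ T cell programme list is not reported here. Members and lists were chosen with earlier results of these data known. Thinned shares are expectations over all draws of 1000 UMIs from a cell. Interval coverage, thinning and the order of similar genes were tested on simulated data. The simulated counts were Poisson, so coverage for counts as unevenly spread over cells as these was not tested.

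Python 3.11.15, numpy 2.4.6, scipy 1.17.1, pandas 2.3.3 and matplotlib 3.10.9 were used.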

Additional observations from a re-analysis of the deposited data

Results flagged for a closer look

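Over the 4 hashtag rows of a group, 28 quantities (each constant gene over the odd rows as a whole, in each of the 5 classes and in the even rows) were checked for a row far from the others. For values drawn alike from a normal distribution, chance gives about 1 in 20. The rows may hold unlike populations and differ in cell number and depth, and the quantities overlap, so this rate need not hold here. In 3 the gap passed the 95% limit of Dixon's test. Trdc in the Cd79a class was at 46.0 CPM in row 17 and at 6.87 to 13.1 in the other rows. Of the 20 UMIs behind it, 19 lay in 1 of 58 cells, and without that cell the value is 2.37 CPM. Tcrg-C1 in the remaining cells was at 329 CPM in row 13 and at 167 to 177 in the others, and at 222 CPM in that row without the cells that held both Kit and Il2ra UMIs, against 123 to 131 in the others. Tcrg-C4 in the Rag1 class was at 41.7 CPM in row 17, from 44 UMIs in 75 cells, and at 23.3 to 26.0 in the other rows.

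Outside rows 11 to 18, which were the only hashtag rows used, row 1 held 12255 UMIs and row 4 held 11854, while the other 10 unused rows held 12 to 599.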

How the results depend on the processing

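There were 190 alternative values for the 15 levels, shares and fold differences that carry the comparisons. Of these, 135 stayed within the 95% counting interval of the value reported, 50 left it without a reversal and 5 reversed. All 5 were for the small difference of Tcrg-C4 between the Ikzf2 class and the even rows. Only fold differences could reverse, since levels and shares have no direction. The even rows were not split by class, so class limits could not change their values, which count among the 135. With at most 4000 genes per cell, the odd rows over the even rows were 5.98 for Trdc, 1.87 for Tcrg-C1, 1.70 for Tcrg-C2 and 0.578 for Tcrg-C4. The Ikzf2 class over the even rows became 6.50, 2.08, 2.45 and 0.934, and Trdc in the Rag1 class 135 CPM and 33.5% of cells. With a hashtag share of 95% of at least 50 UMIs, the odd rows over the even rows were 2.67 for Tcrg-C1, 2.42 for Tcrg-C2 and 0.817 for Tcrg-C4. Here the Ikzf2 class over the even rows was 3.27, 3.82 and 1.36, Tcrg-C1 in the even rows 38.6 CPM, and Trdc was found in 63.2% of the Rag1 class. With looser cell filters (500 genes, 10% mitochondrial UMIs) that share was 46.0%. Class limits of 1, 2, 1 and 1 UMIs (Cd79a, Cst3, Rag1, Ikzf2) put Trdc in the Rag1 class at 149 CPM and 39.0% of cells, and the Ikzf2 class over the even rows at 12.3 for Trdc and 3.10 for Tcrg-C1. Limits of 4, 10, 2 and 4 gave 8.20, 1.81, 2.37 and 0.754 for the 4 genes in order. Averaging the CPM of each cell gave 6.38, 1.89, 2.24 and 0.921, with Trdc in the Rag1 class at 139 CPM. Without the Kit and Il2ra cells, an alternative added after seeing the data, the odd rows over the even rows were 1.31 for Tcrg-C1, 1.44 for Tcrg-C2 and 0.583 for Tcrg-C4, and the Ikzf2 class over the even rows 1.49, 1.90 and 0.862. Without the cell richest in Trdc in each row, also added later, Trdc was at 4.42 CPM in the Cd79a class, 154 in the Rag1 class and 9.67 in the even rows. Thinning to 1000 UMIs put Trdc at 11.5% of the Rag1 class and 1.06% of the even rows. In 1 such draw, 3 ratios of co-detection in the Rag1 class reversed, on few cells: 0.987 for Tcrg-C2 with Trdc, and 0 for Tcrg-C4 with Trdc and for Tcrg-C4 with Tcrg-C1.

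Leaving out 1 hashtag row at a time, also added later, gave odd over even rows of 8.71 to 10.5 for Trdc, 1.69 to 2.34 for Tcrg-C1, 2.00 to 2.30 for Tcrg-C2 and 0.675 to 0.823 for Tcrg-C4. The Ikzf2 class over the even rows ranged from 9.24 to 11.5, 2.27 to 3.22, 2.92 to 3.47 and 0.995 to 1.33 in this order. Even-row levels ranged from 10.2 to 10.8 CPM for Trdc, 38.3 to 45.0 for Tcrg-C1, 30.9 to 33.0 for Tcrg-C2 and 36.8 to 42.3 for Tcrg-C4. Trdc in the Rag1 class ranged from 161 to 170.5 CPM and from 48.3% to 57.2% of cells, and in the even rows from 3.18% to 3.39% of cells. For Tcrg-C4 the remaining cells over the Ikzf2 class, 1.28 with all rows, ranged from 0.935 without row 13 to 1.56 without row 15. No cause of these changes was tested. No paired analysis was possible because the hashtag rows carry no replicate number and no assigned group.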
